A study of Mus musculus with 139 samples.

Results

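Mir21a is the mouse gene for the microRNA miR-21a, and it was followed here as 1 row of 6114 small RNA gene rows across 11 tissues. The row was taken by its name, and 2207 of the rows are of class miRNA in the table's own class field. Small RNA libraries had been made from tissues of untreated wild-type C57BL/6J mice, an inbred laboratory strain, at 3 months of age. The table holds 134 libraries from 14 animals, with 13 libraries of liver, 14 of spleen, 12 of bone marrow, 12 of intestine, 14 of kidney, 12 of pancreas, 13 of lung, 3 labelled testis, 14 of brain, 14 of muscle and 13 of heart. Column names give animals 1 to 10 as female and animals 11 to 14 as male. For the libraries labelled testis, each column matches the title of 2 listed samples of the animal, of which 1 has a stated age and pool. The other groups share genotype, strain and age, and no group was treated, so the comparisons are between tissues of the same animals and between sets of libraries. Each library is RNA of a whole piece of tissue, so fewer cells of a type and less RNA per cell cannot be told apart.

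A microRNA gene is transcribed as a longer RNA, cut to a hairpin and then to a short duplex, of which 1 strand is loaded into an Argonaute protein. Bases 2 to 8 of the loaded strand, the seed, pair with target messenger RNAs, which are then translated less or degraded. miR-21 is known as one of the most abundant microRNAs of many tissues, is induced by STAT3 and AP-1, and targets Pdcd4 and Spry1, inhibitors of growth signalling. It is studied in inflammation, fibrosis of heart, kidney and liver, and tumours.

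The Mir21a gene (ENSMUSG00000065455.1) lies on chromosome 11 at 86584067 to 86584158, minus strand, in GRCm38. In the GENCODE M21 annotation this stretch is inside exon 12 of Vmp1, in the part annotated as UTR at its 3′ end, on the same strand. Vmp1 encodes a membrane protein of autophagy. The mature strands are shown to let the reader compare them with their relatives, 5′ to 3′, from RefSeq (GRCm38.p6), with the seed in capitals. miR-21a-5p, at 86584120 to 86584141, is the strand usually loaded, and miR-21a-3p, at 86584082 to 86584103, is its partner.
miR-21a-5p: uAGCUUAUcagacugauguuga
miR-21a-3p: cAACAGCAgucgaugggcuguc
miR-21b: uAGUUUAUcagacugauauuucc
miR-21c: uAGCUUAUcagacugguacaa
The count row does not separate the strands of the hairpin. Among 1738 mature mouse sequences in that table, 2 have the seed AGCUUAU, namely miR-21a-5p and miR-21c. Sequences outside these 1738 were not searched, so other mouse microRNAs with this seed may exist. Counted from 1 at the 5′ end, miR-21c has the same first 15 bases as miR-21a-5p and then differs by A16G, G18A, U19C, U20A and G21A. miR-21b differs inside the seed by C4U, and beyond it by G18A, G21U and A22C.

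Between 10255 and 34095704 counts fell into a library (median 6327550), and 8 libraries had under 100000. Mir21a had counts in 134 of 134 libraries, with at least 106 counts in each, which 113 gene rows did (a count in every library). Levels are given in counts-per-million (CPM) of the library total, and their counting error is small beside the spread between libraries: Pancreas 11, the shallowest library, had 425 Mir21a counts, 41443 CPM with an exact 95% binomial interval of 37668 to 45482. Intervals cover counting error only. Most tissues carried their own marker microRNAs, but the 8 microRNAs of the testis X cluster summed to 0 to 0.138 CPM in the libraries labelled testis, so these are named by their label. The library labelled Pancreas 11 had 81716 CPM of Mir215, an enterocyte microRNA that the other pancreas libraries had at 0 to 1.60 CPM, and 14822 CPM of Mir148a, against 157892 to 490210 in 10 other pancreas libraries. Results that rest on it are given with and without it.

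Liver and spleen had the highest Mir21a, and heart, muscle and brain the lowest. The median fell from 37529.6 CPM in liver to 2261 CPM in heart, a 16.6-fold range, and single libraries ran from 809 CPM in Muscle 12 to 129357 CPM in Liver 4, a 160-fold range. In liver, the lowest library was at 15155 CPM, the median at 37529.6 and the highest at 129357 (mean 44295 ± 29132, SD, n = 13). In spleen, the lowest was at 12185 CPM, the median at 24105 and the highest at 108690 (42596 ± 32380, SD, n = 14). The ranges of these 2 tissues overlap almost wholly, and each lies above every heart, muscle and brain library.

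Bone marrow, intestine, kidney, pancreas, lung and the libraries labelled testis had medians between these ends. Bone marrow ran from 1754 over a median of 17809 to 24317 CPM (n = 12). Intestine ran from 1574 over 14182 to 28178 CPM (n = 12). In both, single libraries fall to the level of heart.

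Kidney ran from 2599 over 8222 to 13161 CPM (n = 14). Pancreas ran from 3480.2 over 7946 to 43278 CPM (n = 12). Lung ran from 2369 over 6275 to 38658 CPM (n = 13). In pancreas the top is made by Pancreas 5 and Pancreas 11, and the other 10 libraries had a median of 6521 CPM and a highest value of 12086 CPM.

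The 3 libraries labelled testis, of animals 11, 12 and 13, had 4697, 4751 and 5561 CPM. Their narrow range is not set against the other tissues, whose libraries come from both animal sets. In animals 11 to 14 alone, lung ran from 2369 to 2958 CPM and bone marrow from 1754 to 2392 CPM. Brain ran from 1967 over 3024 to 6918 CPM (n = 14). Muscle ran from 809 over 2608 to 4186 CPM (n = 14). Heart ran from 1492 over 2261 to 6489.8 CPM (n = 13). The 3 lowest tissues overlap one another, and their highest libraries reach into the lower part of the kidney and lung ranges.

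**Figure D1:**
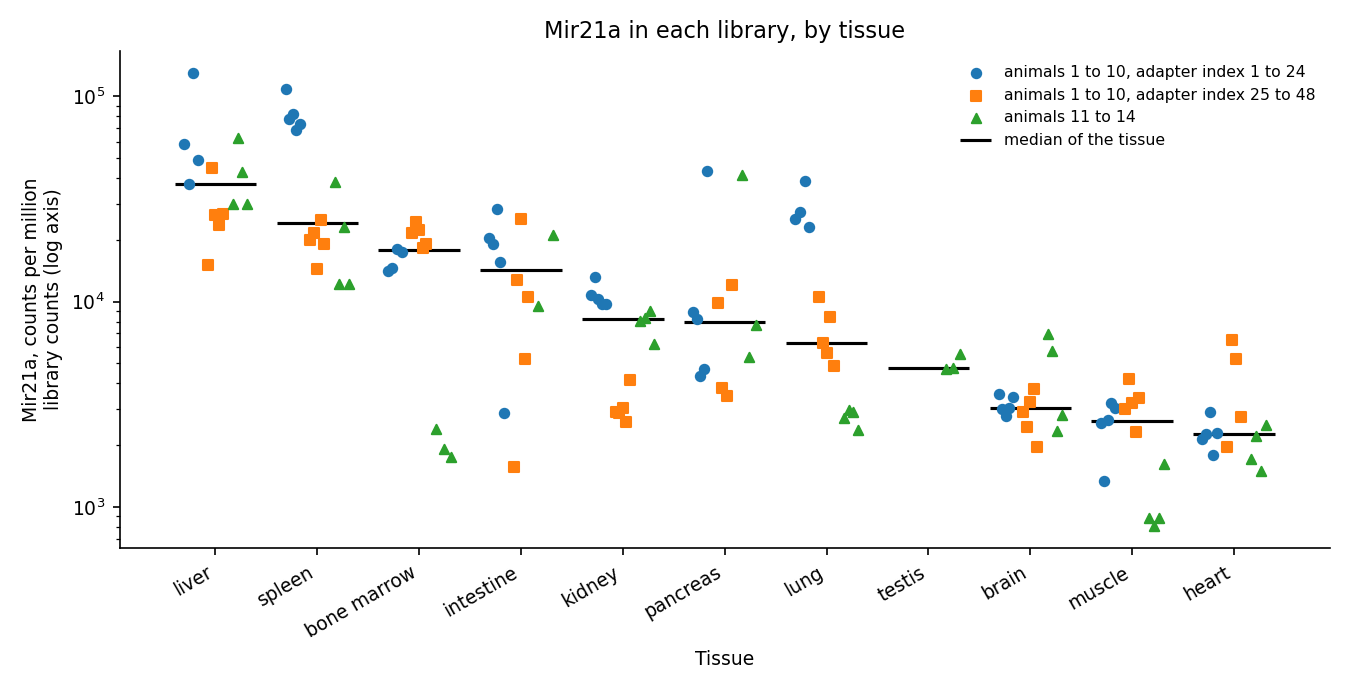
Mir21a in CPM of the library total (log axis) in each of 134 libraries, by tissue, with the median of each tissue as a bar and colours for the library sets described below. Liver and spleen medians are 37529.6 and 24105 CPM, and the heart median is 2261 CPM; in spleen, kidney and lung the low-index libraries of animals 1 to 10 lie above the high-index ones.

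The within-animal comparison asks whether a tissue differed from the other tissues of the same mouse. Liver was higher than the mean of the same animal's other tissues by 2.61 ± 0.75 on the log2(CPM + 1) scale (SD, higher in 13 of 13 animals; exact two-sided sign-flip test, adjusted p = 6.10e-04 over 10 tissues). Spleen was higher by 2.30 ± 0.83 in 14 of 14 animals (exact sign-flip test, adjusted p = 6.10e-04). These differences were seen in every mouse and were larger than the spread between mice.

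Muscle was lower in every mouse, at -2.13 ± 0.80 (higher in 0 of 14; exact sign-flip test, adjusted p = 6.10e-04). Heart was lower in every mouse as well, at -1.84 ± 0.81 (0 of 13; exact sign-flip test, adjusted p = 6.10e-04). Brain was at -1.43 ± 0.78 and was higher in 2 of 14 animals (exact sign-flip test, adjusted p = 9.77e-04). So the 3 tissues of nerve and striated muscle stood below the rest of the same mouse.

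Bone marrow (0.44 ± 1.39), intestine (0.48 ± 1.39), kidney (-0.36 ± 0.85), pancreas (0.10 ± 1.46) and lung (0.02 ± 1.13) did not pass, with exact sign-flip adjusted p from 0.24 to 0.938. The libraries labelled testis were at -0.21 ± 0.32 (n = 3; exact p = 0.5, and 3 animals cannot go below 0.25).

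The edgeR model of all 134 libraries, with TMM scaling and a term for library pool, gave calls of the same direction for liver (log2 fold change against the mean of the other tissues 3.06 ± 0.28, SE, adjusted p = 4.37e-18), spleen (1.53 ± 0.29, adjusted p = 2.61e-06), brain (-2.42 ± 0.34, adjusted p = 3.94e-10), heart (-1.95 ± 0.35, adjusted p = 1.20e-06) and muscle (-1.54 ± 0.34, adjusted p = 6.58e-05). It also called intestine higher (1.05 ± 0.31, adjusted p = 0.0023), just above the threshold of 1, and not on library totals (0.53, adjusted p = 0.19) or by DESeq2 (0.92). A gene counted as called if its Benjamini-Hochberg adjusted p was under 0.05 and its log2 fold change was 1 or more in size. Of the 1268 genes tested, 32.2% were called in liver, 34.9% in spleen, 59.3% in brain, 29.7% in heart, 30% in muscle and 44.7% in intestine, so a call was common for any gene. Bone marrow, kidney, lung, pancreas and the libraries labelled testis were not called, with adjusted p from 0.0979 to 0.904, beside 47.6%, 33.5%, 31.5%, 33.3% and 21.1% of all genes called.

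Scaling matters for the middle tissues, because TMM moved the median of all genes as well. On library totals the median log2 fold change of all genes was 0.84 higher than with TMM in bone marrow, 0.75 higher in brain and spleen, 0.52 higher in pancreas, and changed by -0.84 in kidney, -0.55 in muscle, -0.53 in intestine, -0.45 in the libraries labelled testis and -0.18 in liver. The share of calls that were higher moved with it, for example from 42.7% to 11.6% in kidney and from 60.8% to 81.6% in bone marrow. Mir21a in liver, spleen, brain, heart and muscle kept its direction and its call on library totals, at 2.54, 2.40, -1.60, -2.05 and -2.37.

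**Figure D2:**
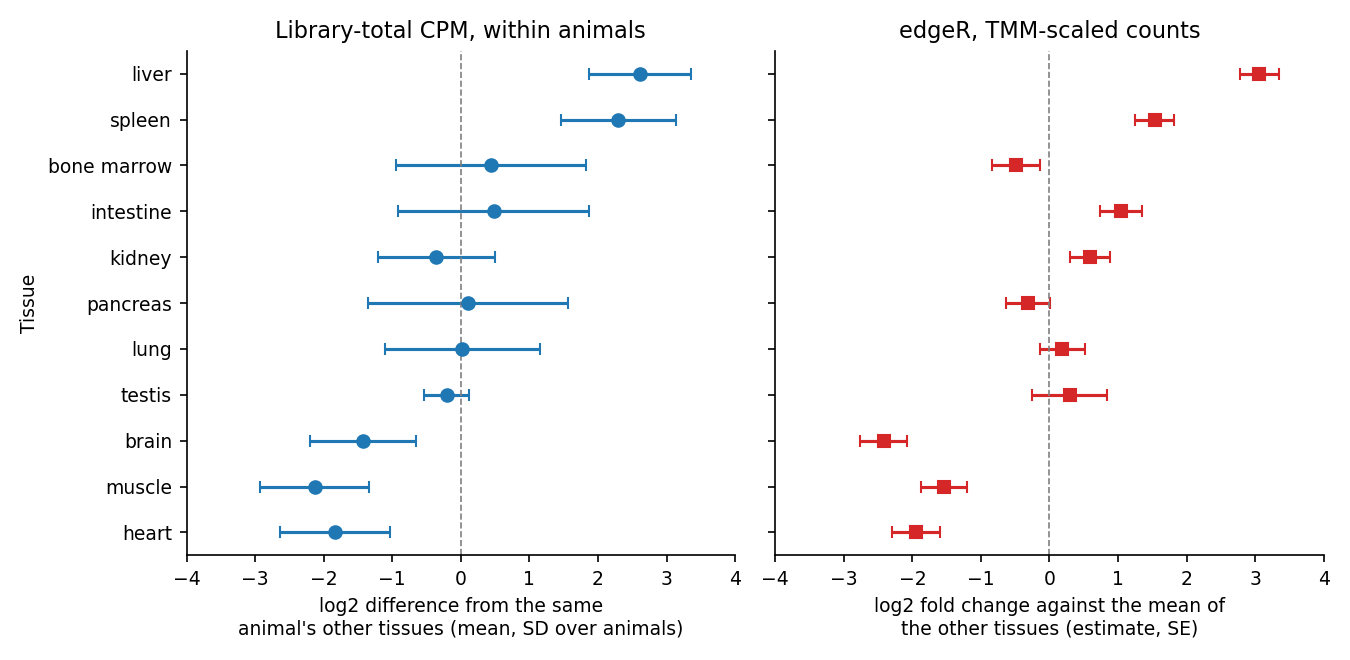
Mir21a in each tissue against other tissues: left, log2(CPM + 1) difference from the same animal's other tissues (mean and SD over animals); right, edgeR log2 fold change against the mean of the other tissues (estimate and SE). Liver and spleen lie right of 0 and brain, muscle and heart left of 0 in both panels.

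No neighbours in the order of medians could be told apart by the within-animal test. The pairs of the libraries labelled testis with lung and with brain had 3 animals each. Their exact sign-flip p cannot go below 0.25, so these pairs could not pass. Of 10 neighbouring pairs, 0 passed at an adjusted p under 0.05 by the exact sign-flip test, and 2 had an unadjusted p under 0.05. These 2 are spleen over bone marrow (1.78 ± 1.52, SD over 12 animals, higher in 9; exact adjusted p = 0.0537) and intestine over kidney (0.86 ± 1.30 over 12 animals, higher in 10; exact adjusted p = 0.189). Liver was above spleen by a mean of 0.34 over 13 animals, with liver higher in 7 (exact sign-flip test, adjusted p = 0.417). edgeR called Mir21a in 35 of all 55 tissue pairs, where 43.7% of all gene and pair combinations were called, and in 5 neighbouring pairs it had an adjusted p under 0.05. In that model liver was called above spleen (1.38 ± 0.37, SE, adjusted p = 8.8e-04), and bone marrow below spleen (-1.84 ± 0.49, adjusted p = 0.0017) and below intestine (-1.40 ± 0.39, adjusted p = 0.0012). Brain was called below the libraries labelled testis (-2.47 ± 0.55, adjusted p = 5.7e-05). The brain and muscle pair passed on p with a difference under the fold threshold. Of the 20 pairs not called, 3 were the pairs among brain, heart and muscle.

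Within a tissue, Mir21a placed high among the microRNA rows of the liver, spleen, bone marrow and intestine and lower in the excitable tissues. By median CPM it was row 5 in liver, 7 in spleen, bone marrow and intestine, 9 in kidney, 14 in pancreas and in the libraries labelled testis, 16 in lung, 25 in muscle, 37 in heart and 50 in brain. In liver the first row was Mir192, a microRNA of liver, gut and kidney epithelium, at 137228 CPM, and Mir122, the known hepatocyte microRNA, stood just below Mir21a at 26004 CPM. That order did not hold in animals 11 to 14, with Mir122 at 63374 to 75204 and Mir21a at 29812 to 62681 CPM. In animals 1 to 10 the medians were 19179 CPM for Mir122 and 37529.6 CPM for Mir21a. Mir10a led in spleen (70769 CPM), intestine (89078 CPM) and lung (160913 CPM), and Mir10b in kidney (332071 CPM), muscle (119590 CPM as its median) and the libraries labelled testis (218369 CPM). These are Hox cluster microRNAs.

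Mir148a led in pancreas (323346 CPM), Mir30a in brain (94084 CPM) and Mir486 in bone marrow (91924 CPM) and heart (114006 CPM). Reads of Mir486 cannot be told from those of the overlapping Mir3107. Mir486 is counted below with the erythroid rows, and which cells its reads in heart come from was not tested. Mir21a was the first microRNA row itself in 3 libraries, Spleen 1, 2 and 3, at 108690, 77718 and 82318 CPM.

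Mir21a was found in every tissue, and relative to its highest tissue its log level varied less than that of most other microRNAs. The specificity index tau, which is 0 for a gene at 1 level in all tissues and 1 for a gene of a single tissue, was 0.162 for Mir21a on log2(median CPM + 1), and 0.722 for the median of 578 microRNA genes that passed the filter on low counts. Of these, 553 had a higher tau. Among 73 with a mean of at least 1000 CPM the median was 0.202, and 51 had a higher tau. Tau on this scale tends to be lower for abundant genes, so these 73 are the closer comparison. Mir21a itself spanned a 16.6-fold range of tissue medians. Its spread between libraries of a tissue was wider than that of most: the median SD within a tissue was 0.98 on the log2(CPM + 1) scale, against 0.53 for the 578 genes, of which 64 were above Mir21a. Among the 73 abundant genes the median was 0.83, and 19 were above it.

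Much of the spread within tissues ran along sets of libraries. The descriptions name a pool and an adapter index number for each library. For animals 1 to 10, the lung, pancreas, kidney, liver and spleen libraries are in pool N467 and the others in N469; pool N541 is animals 11 to 14. Within animals 1 to 10, adapter index 1 to 24 was used for animals 1 to 5 and index 25 to 48 for animals 6 to 10, except in lung and bone marrow, where animal 5 has a high index. The split by index and the split by animals differ only at animal 5, and 1 animal cannot tell them apart. This comparison was added after the values were seen.

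In spleen the 5 low-index libraries had 108690, 77718, 82318, 68627 and 72933 CPM in animals 1 to 5. The 5 high-index libraries had 20068, 21570, 14366, 25057 and 19071 CPM in animals 6 to 10. The sets do not overlap, and the medians differ 3.87-fold.

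In kidney the low-index libraries had 10761, 13161, 10310.2, 9722 and 9697 CPM. The high-index libraries had 2888, 2873, 3042, 2599 and 4152 CPM. Again no library of one set reaches the other, with medians 3.57-fold apart.

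In lung the low-index libraries of animals 1 to 4 had 25242, 27462, 38658 and 22999 CPM. The high-index libraries of animals 5 to 9 had 10589.7, 6275, 5625, 8441 and 4854 CPM, with medians 4.20-fold apart. Animal 5 is the one whose lung has a high index while its spleen and kidney have a low one. Its lung, at 10589.7 CPM, is the highest of the high-index lungs and below every low-index lung. Its spleen (72933 CPM) and kidney (9697 CPM) lie with the low-index ones. Whether the index or the animal goes with the difference was not tested.

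In liver the low-index libraries of animals 1, 2, 4 and 5 had 58584, 37529.6, 129357 and 49122 CPM. The high-index libraries had 15155, 44581, 26319, 23529.8 and 26604 CPM. Liver 7 reaches into the low-index range. In bone marrow the direction in CPM was the other way: 14035, 14551, 18103 and 17515 CPM in the low-index libraries lie below 21577, 24317, 22421, 18280 and 19010.4 CPM in the high-index ones. This direction turned with the scaling: in edgeR with TMM the high-index bone marrows were lower, at -0.40 ± 0.47 (SE, adjusted p = 0.702), which is no call.

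edgeR called Mir21a lower in high-index than in low-index libraries in liver (log2 fold change -2.37 ± 0.48, SE, adjusted p = 1.01e-04), spleen (-1.69 ± 0.46, adjusted p = 0.0054), kidney (-1.57 ± 0.46, adjusted p = 0.00899) and lung (-1.58 ± 0.48, adjusted p = 0.0147), of 10 tissues. Without animal 4 the liver difference was -0.92 (adjusted p = 0.184), and lung was not called without animals 1, 2, 3 or 6 in turn (adjusted p from 0.0515 to 0.0800). Of 1212 genes tested, 23.9%, 18.6%, 16.3% and 15.1% were called in these tissues in either direction. In the 6 tissues without a call of Mir21a, 25% of genes were called in brain, 27% in intestine, 17.8% in pancreas, 15.3% in heart, 14.9% in muscle and 14.6% in bone marrow. In exact two-sided permutation tests on log2(CPM + 1), spleen (-2.04), kidney (-1.80), lung (-2.03) and bone marrow (0.40, higher in high-index libraries) each had an adjusted p of 0.0397, and liver (-1.25) had 0.0635. Beside the count of tissues with sets that do not overlap, 15.0% of 1268 genes did not overlap in spleen, 18.4% in kidney, 21.3% in lung and 31.7% in bone marrow. The difference depended on tissue in edgeR's test of the 9 interaction terms (adjusted p = 0.0365; without single animals 1.94e-06 to 0.159).

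**Figure D3:**
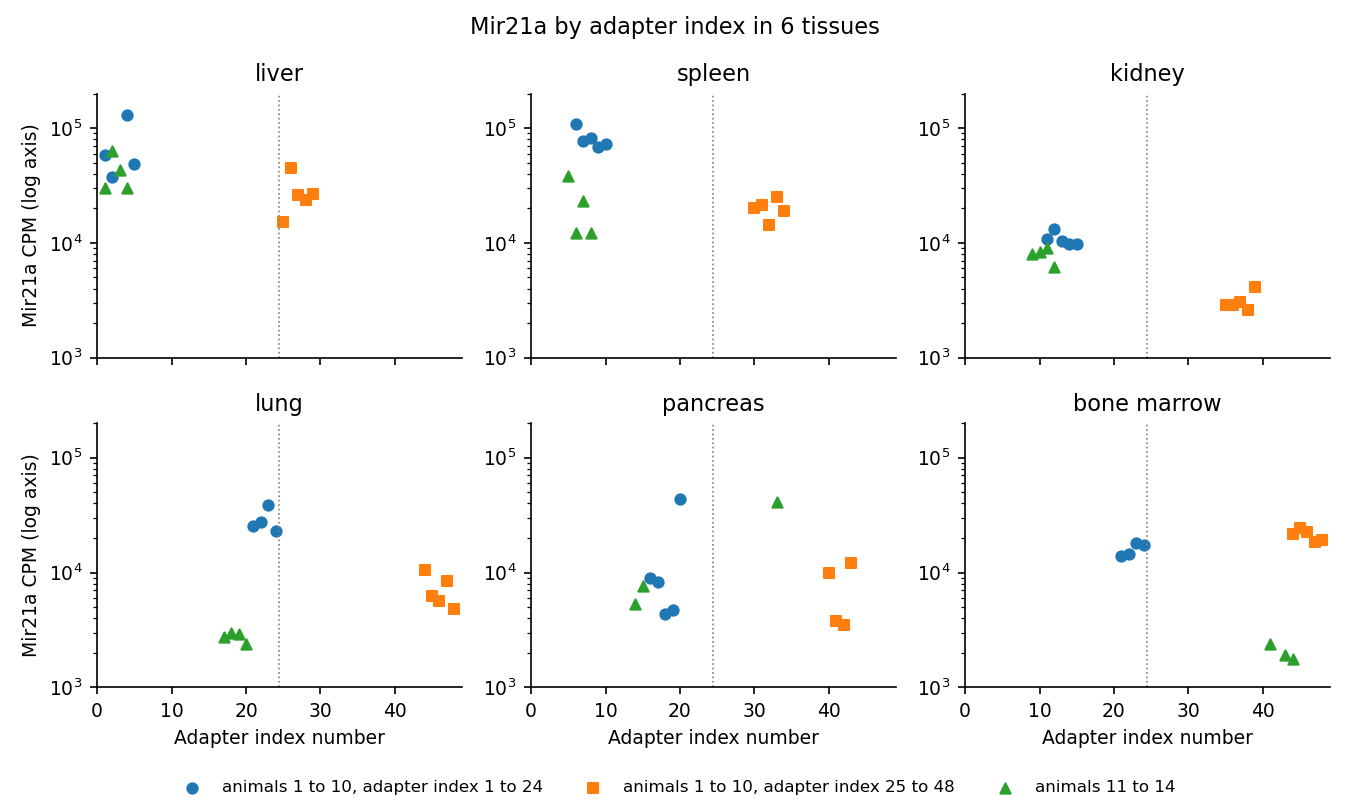
Mir21a CPM (log axis) against the adapter index number of the library in liver, spleen, kidney, lung, pancreas and bone marrow, with a dotted line between index 24 and 25. In spleen, kidney and lung the libraries of animals 1 to 10 lie at 68627 to 108690, 9697 to 13161 and 22999 to 38658 CPM left of the line and at 14366 to 25057, 2599 to 4152 and 4854 to 10589.7 CPM right of it. In these tissues every library of animals 11 to 14 has an index left of the line, at 12185 to 38389.9, 6216 to 8957 and 2369 to 2958 CPM.

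Stromal microRNAs, the 6 measured rows of the Mir199, Mir214, Mir143 and Mir145 group of fibroblasts and smooth muscle, had lower ranges in the high-index libraries of spleen, kidney and lung, as Mir21a had, but not of liver. Their summed level was 66346 to 88887 CPM in low-index and 34974 to 61933 CPM in high-index spleens, 22133 to 25452 against 13533 to 17973 CPM in kidney, and 108766 to 116969 against 38419 to 98312 CPM in lung. In liver they were 10233 to 18405 against 13279.6 to 21707 CPM. They were lower in the low-index libraries of brain (4340 to 10367 against 10955 to 24811 CPM) and muscle (9554 to 26818 against 41617 to 52834 CPM). Heart (26784 to 36520 against 53832 to 74413 CPM) and bone marrow (6575 to 9398 against 10382 to 14293 CPM) went the same way. In intestine and pancreas the stromal ranges overlapped. Mir126a, the endothelial microRNA, was at 8301 to 13760.4 CPM in low-index and 2439.7 to 7049 CPM in high-index spleens, at 4733 to 9482 against 1192 to 2366 CPM in kidney, and at 34865 to 51888 against 5142 to 19028 CPM in lung. In bone marrow it was lower in the low-index libraries (2119.9 to 2955 against 6209 to 9365 CPM), and in liver the ranges overlapped (3678 to 22862 against 4592 to 15424 CPM). It was lower in the low-index libraries as well in brain (1765 to 3434 against 4742 to 7443 CPM), muscle (808.5 to 3773 against 7552 to 12028 CPM) and heart (6583 to 11044 against 15821 to 26495 CPM), where Mir21a was not called. The 4 leukocyte rows (Mir142, Mir150, Mir223 and Mir155) overlapped between the sets in spleen, kidney, lung and liver, and were lower in the low-index bone marrows (17494 to 24235 CPM) than in the high-index ones (26409 to 37948 CPM). The part of these cells in the Mir21a differences was not tested.

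As a mean over animals, liver and spleen stood above, and muscle, heart and brain below, the same animal's other tissues in each set. The order at the ends changed. Against the same animal's other tissues, liver was at 2.74 in low-index, 2.10 in high-index and 3.17 in animals 11 to 14, and spleen at 3.22, 1.67 and 1.99. Muscle was at -2.43, -1.31 and -2.78, heart at -2.57, -1.04 and -1.71, and brain at -2.03, -1.52 and -0.53. The 2 animals whose brain was above their other tissues were both in the last set, animals 11 (6918 CPM) and 12 (5769 CPM). Spleen had the highest median of the low-index libraries (77718 against 53853 CPM in liver), while liver led in the high-index libraries (26319 CPM) and in animals 11 to 14 (36279 CPM). In the high-index libraries bone marrow (median 21577 CPM) lay above spleen (20068 CPM), and kidney (2888 CPM) lay among brain (2886 CPM), muscle (3216 CPM) and heart (3994 CPM), with a difference of -1.35 from the same animal's other tissues. In animals 11 to 14, bone marrow (-1.65) and lung (-1.16) were further below the same animal's other tissues than brain was.

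Animals 11 to 14 had far less Mir21a in bone marrow and lung than animals 1 to 10. In bone marrow the libraries of animals 11, 13 and 14 had 2392, 1914 and 1754 CPM, against 14035 to 24317 CPM in animals 1 to 9. In lung they had 2723, 2958, 2899 and 2369 CPM in animals 11 to 14, against 4854 to 38658 CPM in animals 1 to 9. The sets do not overlap in these tissues, where 31.3% and 17.4% of 1268 genes do not overlap either. Muscle was low in animals 11, 12 and 13, at 888, 809 and 880.4 CPM, with 1617 CPM in animal 14, against 1345 to 4186 CPM in animals 1 to 10.

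edgeR called the set difference in bone marrow (-2.15 ± 0.70, SE, adjusted p = 0.0149) and lung (-2.12 ± 0.62, adjusted p = 0.00658) and in no other of 10 tissues, beside 26.8% and 22.1% of 1292 genes called. In the other tissues the share of genes called was 26.9% in brain, 26.7% in spleen, 20.6% in kidney, 18.7% in intestine, 14.6% in muscle, 14.3% in liver, 10.8% in heart and 9.75% in pancreas. Neither was called without animal 13 (adjusted p = 0.0913 and 0.110) or without animal 14 (0.128 and 0.0833). By the permutation test on log2(CPM + 1), bone marrow (-3.21, exact adjusted p = 0.0303), lung (-2.23, 0.0200) and muscle (-1.47, 0.0200) passed. The dependence of the difference on tissue did not pass in edgeR (adjusted p = 0.101), and did on library totals (3.30e-05). Animal set, sex and pool N541 are the same split within a tissue and cannot be told apart.

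In bone marrow the composition of the libraries moved as well: microRNA rows took a median of 34.9% of counts in animals 11 to 14 and 76.8% in animals 1 to 9, and snoRNA rows 38.6% and 6.7%. In CPM of the total of the microRNA rows (microRNA CPM), bone marrow Mir21a was still lower, at 5020 to 6242 against 18087 to 33273. The erythroid rows (Mir451a, Mir144 and Mir486) summed to 31080 to 46061 CPM in animals 11, 13 and 14 and to 120525 to 195298 CPM in animals 1 to 9, and the leukocyte rows to 8039.6 to 9650.2 against 17494 to 37948 CPM. Mir126a was at 555.6 to 717.9 against 2119.9 to 9365 CPM. In lung, snoRNA rows took a median of 28.1% of counts in animals 11 to 14 and 5.4% in animals 1 to 9, microRNA rows 66.3% and 84.1%, and Mir126a was at 3512 to 5168 against 5142 to 51888 CPM. Their part in the Mir21a difference was not tested.

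In intestine the spread depended on the total used. The share of tRNA rows ran from 5.5% to 92.7% of counts between the 12 libraries, and Mir21a CPM ran from 28178 in Intestine 3, with 5.7% tRNA, down to 1574 in Intestine 6, with 92.7%. In microRNA CPM these 2 libraries had 32582 and 23408. The coefficient of variation was 60.7% on library totals and 19.3% on microRNA totals. The lowest library on microRNA totals was Intestine 13, at 13053.

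On microRNA totals, intestine moved past bone marrow to the third place (medians 28129 and 21926), and the libraries labelled testis moved to the fifth (10174). Against the same animal's other tissues intestine was then higher by 1.35 (exact sign-flip test, adjusted p = 8.14e-04), as against 0.48 on library totals. No other tissue narrowed as much: the coefficient of variation on the 2 totals was 65.8% and 54.5% in liver, 76% and 71.8% in spleen, 49% and 49.3% in kidney, and 96.8% and 86.9% in lung.

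**Figure D4:**
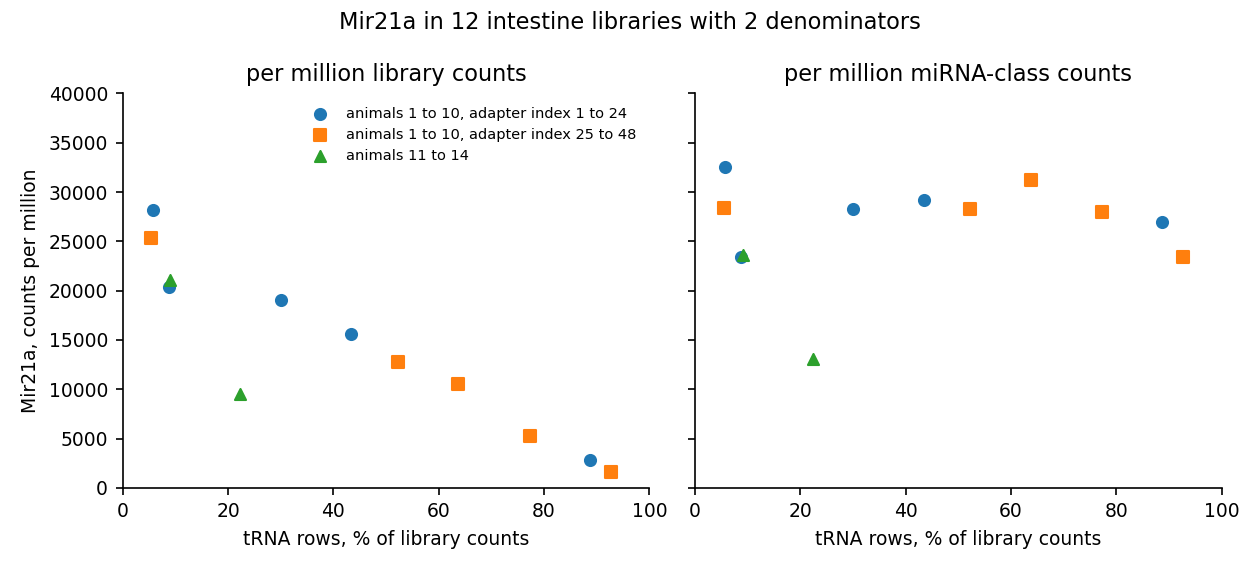
Mir21a in the 12 intestine libraries against the share of tRNA rows, in CPM of the library total (left) and in microRNA CPM (right), on 1 linear scale. On the left the values fall from 28178 to 1574 as the tRNA share rises from 5.7% to 92.7%; on the right they lie between 13053 and 32582.

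Relations with depth and with marker sums were computed within each of 10 tissues, 40 in all with permutation tests and adjustment over the 40. Of the 40, 9 passed by Pearson's r at an adjusted p under 0.05, and 6 of these by Spearman's rho as well. None of the 10 with library depth passed (Pearson r from -0.59 to -0.09). Kidney, lung, bone marrow and spleen fall into separate clusters by set, so no pooled value is given for them beyond the ranges above. Passes in bone marrow, kidney and lung are counted in the 9 and in the 6. They cannot be told from the differences between sets and are not read as relations within a tissue. With the leukocyte sum, 3 of 10 tissues passed by r, namely bone marrow, intestine and pancreas. This r was negative in liver and spleen and positive in the other tissues. In liver it was -0.42 over 13 libraries (permutation test, adjusted p = 0.295). In pancreas, Mir21a rose with the leukocyte sum over 12 libraries (r = 0.84, permutation p = 4.5e-04, adjusted 0.0036; rho = 0.81, permutation p = 0.00226, adjusted 0.0181; r = 0.80 without the 2 libraries farthest from the median, and 0.92 in animals 1 to 9). The pancreas libraries held 10255 to 964665 counts (median 100238), and 1 count is 97.5 CPM in the shallowest. The lower leukocyte sums of pancreas therefore rest on few reads. Pancreas 5, the highest at 43278 CPM, had 2863 CPM of the leukocyte rows and 2298 CPM of Mir142, against 100.004 to 759.9 CPM and 80.0 to 588.6 CPM in the 10 libraries other than Pancreas 5 and 11. Mir216a and Mir217, microRNAs of acinar cells, were at 1617 and 1179 CPM in Pancreas 5, below the 2309 to 10635 and 1860.1 to 8967 CPM of those 10.

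In intestine, Mir21a also rose with the leukocyte sum over 12 libraries (r = 0.94, permutation p = 9.0e-05, adjusted 0.0012; rho = 0.85, permutation p = 7.5e-04, adjusted 0.0075; r = 0.78 without the 2 farthest libraries, and 0.92 with both measures in microRNA CPM). In microRNA CPM, Mir21a was at 13053 in Intestine 13, at 23642 in Intestine 14 and at 23408 to 32582 in animals 1 to 10. The 0.92 is not given without Intestine 13 and may rest on that library. The relations with the stromal and erythroid sums in intestine (r = 0.82 and 0.80) went to -0.25 and 0.17 in microRNA CPM. Numerator and sums share the library total, and leukocytes' part in the Mir21a level was not tested.

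The relatives of Mir21a were counted at a very small part of its level. Mir21c had 2180 counts in 107 of 134 libraries, which is 149.6 CPM when the sum of Mir21a counts is taken as the total, and Mir21b had 94 counts in 39 libraries. Mir21c ran from 107.2 to 171.9 CPM of the Mir21a sum in 10 of the tissues, and in pancreas it had 2 counts, or 38.5 on that scale. Its fold change in liver was 3.29 ± 0.42 (SE, edgeR adjusted p = 2.73e-11), near that of Mir21a. Reads of the first 15 bases fit both genes, and how the counting treated such reads is not given in the sources used here, so Mir21c is not an independent measurement. Mir21b did not pass the filter. Mir590, listed beforehand as a seed relative by name, had no row under that name and was not analysed here.

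The microRNA genes whose tissue pattern was most like that of Mir21a, by Pearson's r of log2(median CPM + 1) over 11 tissues, were Mir21c (0.89), Mir7219 (0.79), Mir19a (0.76), Gm47285 (0.75), Mir17 (0.72), Mir6978 (0.71), Mir32 (0.71) and Mir28a (0.70). The median r of 577 genes was -0.12. The values are a description over 11 points that share libraries and totals. Of the 8 genes, 4 were also among the first 8 by Spearman's rho, 8 without the libraries labelled testis and 7 in microRNA CPM. Mir21c, Mir7219, Gm47285 and Mir6978 had medians of at most 5.50 CPM in every tissue, close to the level of single reads. Mir19a and Mir17, of the Mir17 to Mir92 cluster on chromosome 14 that promotes proliferation, were highest in spleen (642.2 CPM) and bone marrow (657.4 CPM). Mir28a was highest in liver at 260.3 CPM, and Mir32 in spleen at 58.8 CPM.

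Of the 8 genes, 6 matched the table of mature sequences, and of these miR-21c alone has the seed of miR-21a-5p. The mature strands of the more abundant ones are shown for comparison (RefSeq, seed in capitals).
miR-19a-3p: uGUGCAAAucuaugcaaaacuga
miR-17-5p: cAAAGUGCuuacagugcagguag
miR-32-5p: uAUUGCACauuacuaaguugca
miR-28a-5p: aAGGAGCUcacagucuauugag

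**Figure D5:**
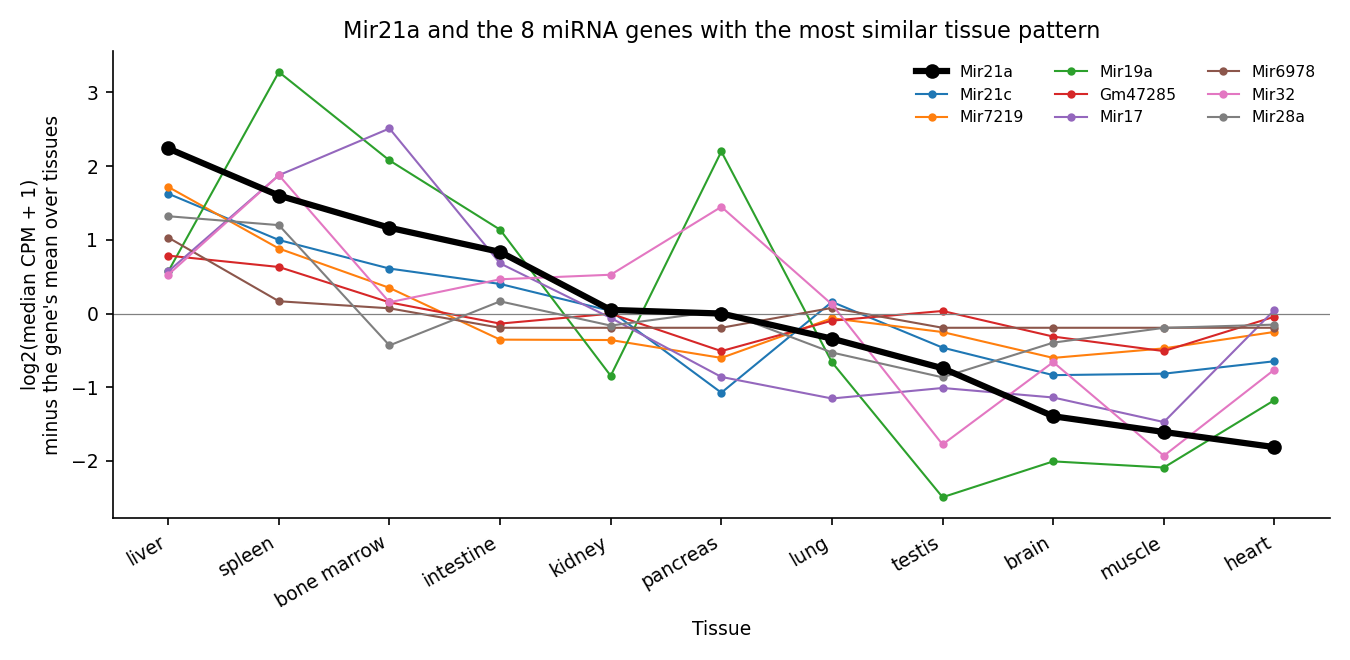
Profiles over 11 tissues of Mir21a and of the 8 microRNA genes with the highest Pearson's r to it, as log2(median CPM + 1) minus each gene's mean over tissues. Mir21a falls from liver to heart; Mir19a peaks in spleen and Mir17 in bone marrow.

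Other microRNAs studied in inflammation were called higher in liver about as often as any gene. Of 8 inflammation-induced microRNAs, 1 was higher in liver, 3 were lower and 4 were not called, with a median log2 fold change of -0.66, beside 11.2% higher and 21% lower and a median of -0.56 for all 1268 genes. Mir31, known from squamous epithelium, was higher (4.33 ± 0.30, SE, edgeR adjusted p = 1.77e-27) at a median of 255 CPM. Mir146b, an NF-kappaB target gene (-2.11 ± 0.45, adjusted p = 4.76e-05), Mir155 of activated lymphocytes and macrophages (-1.82 ± 0.29, adjusted p = 1.08e-07) and Mir222 (-1.05 ± 0.23, adjusted p = 7.94e-05) were lower. In spleen 3 of the 8 were higher and 1 lower, beside 20.4% and 14.4% of all genes.

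Of 10 microRNAs studied in fibrosis, 2 were higher in liver, 0 lower and 8 not called, with a median of 0.62. These 2 were Mir192 (7.20 ± 0.33, SE, edgeR adjusted p = 3.53e-43), the first row of liver, and Mir29c, which targets collagen transcripts (1.20 ± 0.26, adjusted p = 9.04e-05). Mir214 was at 0.93 ± 0.23 and stayed under the fold threshold. In heart 4 were higher and 1 lower, where Mir21a was lower, beside 12.1% and 17.6% of all genes. Copies such as Mir29b-1 and Mir29b-2 give the same mature strand and are not independent.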

How the data were processed

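Per the labels' protocols, total RNA was isolated from tissue kept in RNAlater, libraries were made with a TruSeq small RNA kit, which ligates adapters to RNA ends, and read on a NextSeq. The authors deposited raw counts per small RNA gene. STAR 2.5.1, featureCounts and mm10/GRCm38 are named in the submitters' processing notes, and how strand and multi-mapping were set is not given in the sources used here. GEO lists 139 samples, of which 134 had a column; 5 were not analysed here, and 3 testis columns were matched to an animal only and were placed in pool N541 in the model, the pool that 1 of the 2 samples of that name has. CPM was computed from the library total over all rows. edgeR 4.0.16 (limma 3.58.1, R 4.3.3) quasi-likelihood tests used TMM, whose factors ran from 0.199 to 5.88, filterByExpr with a minimum count of 10 (1268 genes kept, 578 of class miRNA) and a model of tissue and pool. The alternatives were DESeq2 1.42.0, other scalings, totals, filters and left-out libraries. The scripts were checked on simulated counts. Sign-flip and permutation tests used log2(CPM + 1) in Python (scipy 1.17.1), with 100000 draws where a group had 10 or more. Same-numbered libraries come from the same animal, per the labels; deviations of Mir21a from the tissue means correlated over animals with a median r of 0.11 over 45 tissue pairs. Sign-flip and permutation p-values measure the spread between these animals. The edgeR model of tissue and pool has no term for the animal and takes libraries of 1 animal as independent. Its p-values therefore measure the spread between libraries. The member and all lists were chosen with earlier results of these data known. Genes were named by these rules: seed sharing, the 8 most alike, the first row of each tissue, and list members called in liver. Marker microRNAs, libraries standing apart and the adapter index comparison were named after their values were seen.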

Additional observations from a re-analysis of the deposited data

Results flagged for a closer look

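Among 17 groups of 4 to 10 libraries of 1 tissue and 1 animal set, 3 held a library far from the others by Dixon's criterion. It was taken on CPM without a log scale. Chance gives about 1 group in 20 for normally distributed values only. The groups of animals 1 to 10 also pool low-index and high-index libraries, so the 3 are not read as an excess over chance. Liver 4 had 129357 CPM of Mir21a, with a gap of 0.62 of the range of 9 libraries; it is also the liver library behind the edgeR index difference. Pancreas 5 had 43278 CPM, with a gap of 0.784 of the range of 9 libraries, and it carried the highest leukocyte sum of the pancreas libraries. Muscle 14 had 1617 CPM, with a gap of 0.903 of the range of 4 libraries, against 809 to 888 CPM in animals 11 to 13. The difference between high-index and low-index libraries depended on tissue, with log2 differences over a range of 2.45 from liver (-2.37) to heart (0.08) in edgeR (adjusted p = 0.0365).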

How the results depend on the processing

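The calls in liver, spleen, brain, heart and muscle kept direction and call in every alternative tested, within animals (6 each) and in edgeR (15 each): liver 2.36 to 2.94 and 2.44 to 3.23, spleen 1.64 to 2.45 and 1.26 to 2.40, brain -2.27 to -1.40 and -3.48 to -1.60, heart -1.94 to -1.75 and -2.23 to -1.53, muscle -2.35 to -1.35 and -2.37 to -1.37. As values with no test, spleen was at 3.22 in low-index libraries, brain at -0.53 in animals 11 to 14 and muscle at -1.31 in high-index libraries. The cause of the changes below was not tested.

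Within animals, microRNA totals passed bone marrow (0.69), intestine (1.35) and kidney (-0.65), and gave pancreas -0.073 and the libraries labelled testis 0.37. TMM-scaled totals gave bone marrow -0.38, intestine 1.13 (passed), kidney 0.72 (passed), pancreas -0.71 and the libraries labelled testis 0.53. Animals 1 to 10 alone passed bone marrow (1.14) and kidney (-0.72), with pancreas at -0.26. Animals 11 to 14 alone gave bone marrow -1.65, kidney 0.55 and lung -1.16. High-index kidneys were at -1.35 and low-index lungs at 1.46. Pancreas was at -0.012 without shallow libraries and -0.16 without Pancreas 11.

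In edgeR, intestine missed the call on library totals (0.53), without the filter (0.99), in animals 1 to 10 (0.70), without shallow libraries (0.98), in DESeq2 (0.92) and without testis replicates 11 or 12 (0.75 to 1.14 without single replicates). Pool N541 alone called bone marrow (-1.89), kidney (1.59) and lung (-1.14), with pancreas at 0.37. Library totals gave bone marrow 0.45, kidney -0.33, pancreas 0.60 and testis -0.58. DESeq2 size factors gave bone marrow 0.10, lung -0.28 and pancreas 0.49. MicroRNA rows alone gave bone marrow 0.19, lung -0.045 and testis 1.07 (called), and no pool term gave testis -0.25. The replicate block, the animal in place of the pool, changed no call, with 35 tissue pairs called and liver at 2.94. Between neighbours, 2 pairs passed on microRNA totals and 5 by edgeR, with bone marrow minus intestine at -0.44 and -1.40, and in edgeR kidney minus pancreas at 0.82, brain minus muscle at -0.80 and muscle minus heart at 0.37.

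For animals 11 to 14 against 1 to 10, leaving out replicates gave 0 to 2 tissues called, bone marrow -2.35 to -1.72, lung -2.12 to -1.42, heart -0.55 to 0.026, kidney -0.052 to 0.32 and pancreas -0.74 to 1.87. Low-index libraries alone gave 4 tissues called, kidney -0.36 and pancreas 0.23. High-index libraries alone gave brain 0.44, liver 0.68, pancreas 1.22 and spleen 0.55. Library totals gave brain 0.56 and pancreas 0.72, DESeq2 pancreas 0.40, microRNA rows kidney -0.54 and pancreas 0.086, and the permutation test brain 0.44, liver 0.058 and pancreas 0.62. The range of differences over tissues (2.39) passed on library totals (3.95), microRNA rows (2.61), and low-index (2.99) and high-index (3.68) libraries alone, and was 2.26 to 3.96 without single replicates.

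For the index comparison, leaving out replicates gave liver -2.71 to -0.92, lung -1.75 to -1.26 and a range over tissues of 1.92 to 3.61, with heart -0.19 to 0.40 and pancreas -1.28 to 0.90. The permutation test missed liver (-1.25) and gave bone marrow 0.40 and muscle 0.37; library totals gave bone marrow 0.40 and muscle 0.33, microRNA rows bone marrow 0.25, and DESeq2 heart -0.034. The 8 most alike genes kept 4 by Spearman's rho. In bone marrow, whose libraries fall into clusters by set, r with the erythroid sum was -0.28 in animals 1 to 9. Depth limits the shallow libraries: with 119 counts in Brain 11, the exact 95% interval was 5734 to 8273 CPM.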
